A study of Mus musculus with 6 samples.

Results

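The perilipins, the droplet-enlarging protein CIDEC, adipogenin and FIT2 build and cover the lipid droplet, the organelle in which a fat cell keeps its triglyceride. Their genes were followed as Plin1, Plin2, Plin3, Plin4, Plin5, Cidec, Adig and Fitm2, by taking every array probe set whose platform annotation is exactly 1 of these symbols. That rule found 8 probe sets, which stand for 7 of the 8 genes, out of 45037 probe sets and 18193 singly named genes in all. Plin5 had 2 probe sets and the other genes 1 each. Plin1 had none and has no value here.

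The samples were 6 dishes of commercially supplied mouse mesenchymal stem cells, stromal cells that can form fat, and each gave 1 Affymetrix array. In each of 3 independent experiments 1 dish received pulsed terahertz radiation for 2 h (35 fs pulses at 1 kHz, centred near 10 THz, average power density 1 mW/cm2). Its control stood next to it without radiation, and both dishes were kept at 26 to 27 °C. All 6 dishes, controls included, were in α-MEM with 5% serum and had received rosiglitazone (1 µM), insulin (5 µg/ml), IBMX (100 µM) and dexamethasone (1 µM) again 48 h earlier. This mix drives stromal cells towards fat cells, and RNA was taken at the end of the exposure. Levels below are log2 values per probe set, and differences are irradiated minus control, with the standard error (SE) of limma's fit over 3 pairs.

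Triglyceride is made in the endoplasmic reticulum and leaves it as droplets, a step that needs FIT2, encoded by Fitm2. Perilipins then coat the surface and decide how lipases reach the lipid, with PLIN3 and PLIN4 on young droplets, PLIN2 in nearly all cells, PLIN1 in fat cells and PLIN5 in tissues that burn fat. CIDEC gathers where droplets touch and moves lipid from the smaller to the larger, which gives the single large droplet of white fat. In fat cells the nuclear receptor PPARγ, the target of rosiglitazone, activates several of these genes.

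Plin4, Cidec and Adig had the largest differences of the genes measured, so the sequence at their annotated starts is shown, with that of Plin2, whose difference was small, beside them. The choice was made after their values were seen. Each run holds the 250 bases before a start site and the first 10 of the transcript, 5′ to 3′, from RefSeq on GRCm38.p6. Capitals mark AGGTCA, the core word of nuclear receptor sites, TTGCNNAA, a C/EBP word, CACGTG, the E-box, and TATAA, each on either strand.
Cidec, downstream start, chr6:113434755-113435014, minus strand: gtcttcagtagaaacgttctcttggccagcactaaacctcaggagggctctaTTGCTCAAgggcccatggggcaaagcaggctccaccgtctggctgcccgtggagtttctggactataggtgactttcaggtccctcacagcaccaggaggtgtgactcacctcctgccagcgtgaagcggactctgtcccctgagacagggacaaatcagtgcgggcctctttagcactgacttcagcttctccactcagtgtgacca
Cidec, upstream start, chr6:113435751-113436010, minus strand: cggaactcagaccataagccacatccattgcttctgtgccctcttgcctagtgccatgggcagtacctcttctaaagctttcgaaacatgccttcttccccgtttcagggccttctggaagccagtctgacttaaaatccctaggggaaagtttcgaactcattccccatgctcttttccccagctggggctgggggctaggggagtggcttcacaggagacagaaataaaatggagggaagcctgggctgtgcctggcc
Plin4, chr17:56109773-56110032, minus strand: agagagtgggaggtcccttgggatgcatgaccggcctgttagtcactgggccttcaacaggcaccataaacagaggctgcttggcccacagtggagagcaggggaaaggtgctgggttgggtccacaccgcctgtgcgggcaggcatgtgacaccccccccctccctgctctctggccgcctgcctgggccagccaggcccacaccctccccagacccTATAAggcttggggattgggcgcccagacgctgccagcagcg
Adig, chr2:158502362-158502621, plus strand: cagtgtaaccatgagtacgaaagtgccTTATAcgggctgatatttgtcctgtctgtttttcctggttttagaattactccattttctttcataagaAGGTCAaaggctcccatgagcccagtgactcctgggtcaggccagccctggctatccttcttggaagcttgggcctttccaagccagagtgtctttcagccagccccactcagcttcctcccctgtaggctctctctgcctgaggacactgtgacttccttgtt
Plin2, chr4:86670050-86670309, minus strand: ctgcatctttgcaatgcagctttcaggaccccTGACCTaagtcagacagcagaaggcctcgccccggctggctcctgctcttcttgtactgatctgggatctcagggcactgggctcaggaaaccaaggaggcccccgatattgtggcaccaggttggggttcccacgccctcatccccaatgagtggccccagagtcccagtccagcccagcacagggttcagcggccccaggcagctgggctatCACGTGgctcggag

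Promoter windows of 300 bases, from 250 before the start to 50 after it, were held for all 8 genes, 10 windows in all because Plin5 and Cidec have 2 starts each. Plin4 carried TATAA 32 bases before its start, and 1 start of Plin5 carried it at 27 bases. These neighbouring genes lie 1648 bases apart on chromosome 17 (Plin4 at chr17:56100587-56109948, Plin5 at chr17:56111597-56117606). Anywhere in a window and on either strand, TATAA was in 3 of the 10, those of Plin4, Adig and 1 Plin5 start. In Adig it lay on the opposite strand. The same count, which takes no account of position, gave 24.9% of all 32841 windows. AGGTCA was in 4 of the 10 windows, those of Plin2, Adig and both Plin5 starts, against 16.3% of all windows. A pair of such words with 1 base between them, the DR1 arrangement that PPARγ binds, was searched with up to 3 mismatches and overlaps AGGTCA where it holds it. It was in 6 of the 10 windows and in 24.6% of all. The closest match was in Plin2 with 2 mismatches, and Plin4 had none within this limit. The C/EBP word was in the windows of Plin1 and of the downstream Cidec start, and in 10.8% of all windows. The E-box was in Plin2 alone of the 8 genes, across the start site, and in 7.15% of all. The GC box GGGCGG was in 5 of the 10 windows and in 35.7% of all. The cAMP word TGACG and the glucocorticoid receptor word AGAACA were in 0 of the 10, against 20.8% and 19.0% of all windows. A word in a window is a description and not a binding site.

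**Figure D1:**
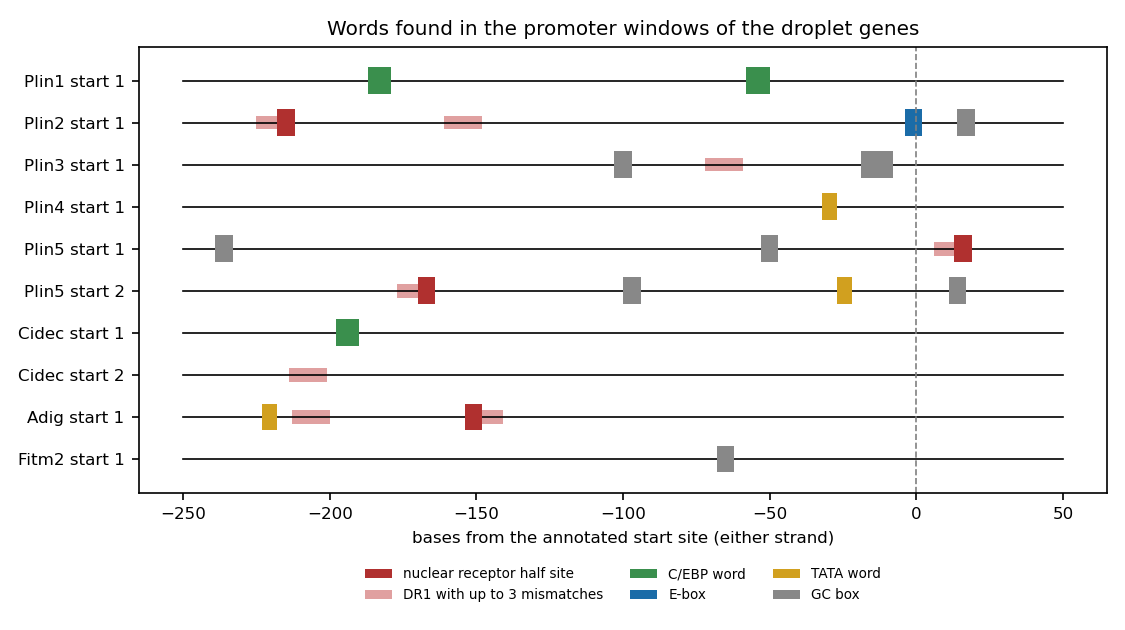
Words found in the 300-base windows around the 10 annotated start sites of the 8 genes. The x axis is the distance in bases from the start site, each line is a window, and coloured blocks are matches on either strand; Plin4 shows 1 TATA word, 32 bases before its start.

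The deposited values were equalized between arrays by the authors, with medians between 4.82 and 4.87 on the 6 arrays, so a difference is relative to the other transcripts. Mature fat-cell markers were at or above the median probe set for 7 of 9 measured. Fabp4, the brightest of them, stood at 14.45 in controls and 14.37 in irradiated cultures. Leptin (Lep) was below the median at 2.80 and 2.82, in the lowest 10.0% of probe sets, and so was Pck1 at 3.29 and 3.17. Of the stem cell surface markers, 8 of 9 measured were at or above the median probe set, and Thy1 was below it at 3.73 in controls. All 14 macrophage and leukocyte markers were at or above the median, so the cultures carried transcripts of more than 1 cell type. In bulk RNA, fewer cells of a type and less RNA per cell cannot be told apart. Control culture 3 had the highest spike-in signal, a mean of 11.40 against 10.82 to 10.99 on the other arrays, and results are therefore also given without experiment 3.

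Irradiated and control cultures differed in no droplet probe set by the test across the array, and in no other probe set (0 of 45037, 0%, limma adjusted p under 0.05). All 7 measured genes had a negative difference, as had 47.6% of all probe sets. The largest differences were those of Adig (0.636-fold), Cidec (0.719-fold) and Plin4 (0.754-fold), while Plin2, Plin3, Plin5 and Fitm2 lay between 0.916-fold and 0.973-fold. The 3 larger ones had an unadjusted limma p under 0.05 and were lower, 3 of the 8 probe sets against 2.38% of all. Lower in all 3 pairs were 5 of the 8 probe sets, against 11.2% of all, those of Plin4, Cidec, Adig and Fitm2 and the brighter one of Plin5. The genes share cells and regulators, so their counts are not independent events. The negative sign of all 7 genes was kept without experiment 1, 2 or 3 and in every other setting tried. Without experiment 3, however, Plin2 and Plin3 were close to 0, at -0.01 and -0.005. All settings reuse the same arrays.

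**Figure D2:**
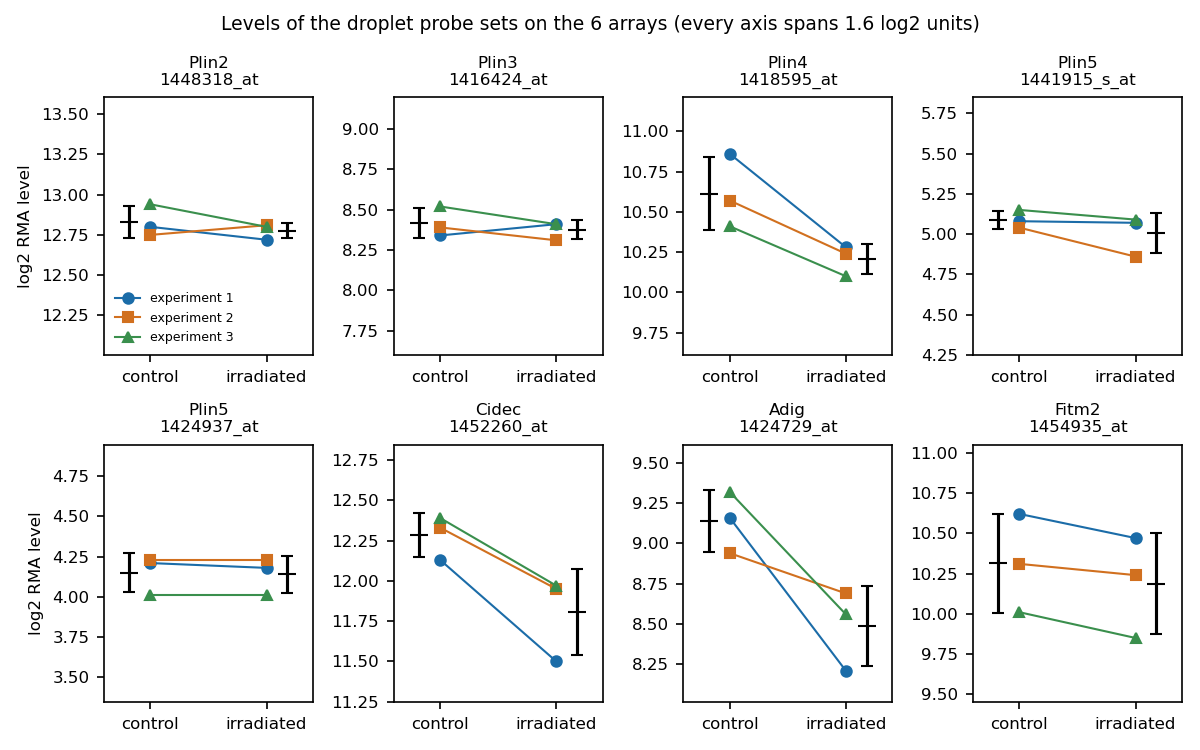
Log2 levels of the 8 probe sets in control and irradiated cultures, with a line joining the dishes of an experiment and black bars for the mean and SD of 3 arrays. Plin4, Cidec and Adig slope down in all 3 experiments, while Plin2 and Plin3 have lines in both directions.

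Plin2, the coat protein made by nearly all cells that store lipid and stabilized by the lipid itself, was among the brightest probe sets of the array, above 99.3% of them. It stood at 12.80, 12.75 and 12.94 in controls 1 to 3 and at 12.72, 12.81 and 12.80 in the irradiated cultures. The groups overlapped, and experiment 2 ran the other way from experiments 1 and 3. The difference was -0.05 ± 0.08, with a 95% interval from 0.84-fold to 1.11-fold (limma adjusted p = 0.968).

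Plin3, also called TIP47, is a soluble perilipin that moves onto young droplets. Its levels were 8.34, 8.39 and 8.52 in controls and 8.41, 8.31 and 8.41 in irradiated cultures, with overlap and with experiment 1 alone positive at 0.07. The difference was -0.04 ± 0.08, with an interval from 0.849-fold to 1.11-fold (limma adjusted p = 0.973). For both of these general coat genes the interval thus leaves out a drop as large as the 0.754-fold of Plin4.

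Plin4, once named S3-12, is the perilipin of white fat cells that covers small new droplets through a long repeated helix. It stood at 10.86, 10.57 and 10.41 in controls and at 10.28, 10.24 and 10.10 in irradiated cultures. Every irradiated array was below every control, which was true of 3 of the 8 droplet probe sets and of 3.1% of all probe sets. Pair differences were -0.58, -0.33 and -0.31, with a mean of -0.41 ± 0.09 and an interval from 0.649-fold to 0.877-fold (limma unadjusted p = 0.0036, adjusted p = 0.929).

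Plin5, which ties droplets to mitochondria in heart, muscle and liver, was dim. Its brighter probe set read 5.08, 5.04 and 5.15 in controls and 5.07, 4.86 and 5.09 in irradiated cultures, close to the median probe set of 4.84. The dimmer read 4.21, 4.23 and 4.01 against 4.18, 4.23 and 4.01, below 4.84. The differences were -0.08 ± 0.08 and -0.01 ± 0.07, so both were small, and the second had pair differences of exactly 0.00 in experiments 2 and 3. The probe sets also ordered the experiments differently. The brighter was highest in experiment 3 and the dimmer lowest there, though neither differed between experiments by limma's F-test (adjusted p = 0.599 and 0.423).

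Cidec, also known as FSP27, was bright too, above 98.6% of probe sets. It stood at 12.13, 12.33 and 12.39 in controls and at 11.50, 11.95 and 11.97 in irradiated cultures. The groups did not overlap, and irradiated culture 1 was the lowest of the 6. Pair differences were -0.63, -0.38 and -0.42, with a mean of -0.48 ± 0.09 and an interval from 0.621-fold to 0.831-fold (limma unadjusted p = 0.00136, adjusted p = 0.929). By p it was number 17 among all probe sets with a negative difference, ahead of Adig (number 48) and Plin4 (number 52). The other genes of the CIDE family, which act on droplets in brown fat and liver, were near or below the median probe set. Cidea averaged 3.40 in controls and 3.13 in irradiated cultures, a difference of -0.27 ± 0.09, and Cideb 4.46 and 4.49, a difference of 0.03 ± 0.10.

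Adig, or adipogenin, is a small membrane protein that appears as stromal cells become fat cells. It stood at 9.16, 8.94 and 9.32 in controls and at 8.21, 8.69 and 8.56 in irradiated cultures. The groups did not overlap, but experiments 1 and 3 differed far more than experiment 2. Pair differences were -0.95, -0.25 and -0.76, with a mean of -0.65 ± 0.14 and an interval from 0.502-fold to 0.806-fold (limma unadjusted p = 0.00327, adjusted p = 0.929). The SE was the largest of the 8 probe sets. The mean was -0.86 without experiment 2 and -0.51 without experiment 1.

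**Figure D3:**
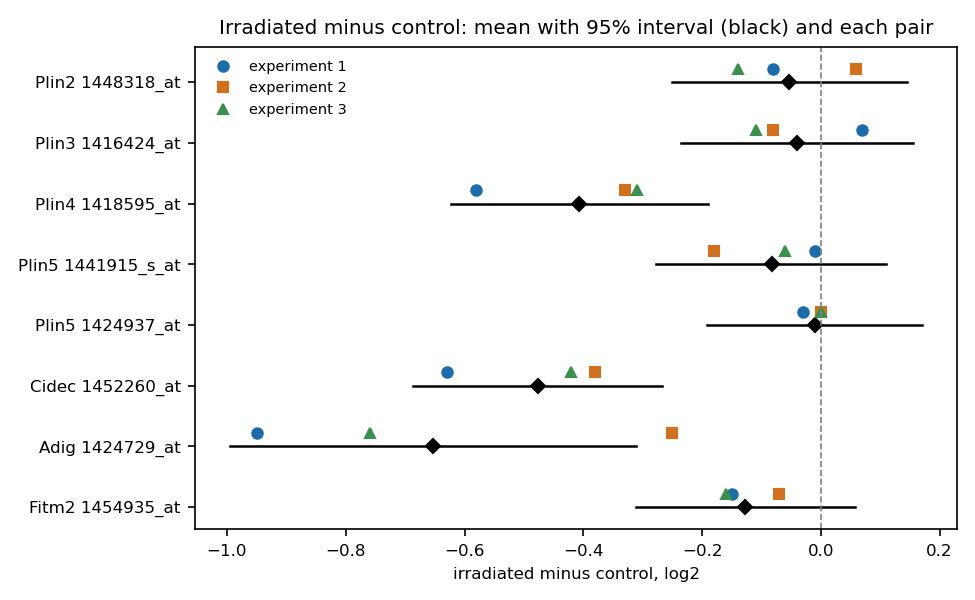
Irradiated minus control log2 differences of the 8 probe sets. Black diamonds and lines are the mean and 95% interval of limma's fit, coloured points are the 3 pairs, and the dashed line is 0; the intervals of Plin4, Cidec and Adig lie below 0 before adjustment for the 45037 tests.

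Fitm2, the endoplasmic reticulum protein that releases new droplets, varied more between experiments than between groups. Controls read 10.62, 10.31 and 10.01 and irradiated cultures 10.47, 10.24 and 9.85 in experiments 1 to 3. Every irradiated dish was lower than its own control, by 0.15, 0.07 and 0.16, yet irradiated culture 1 exceeded controls 2 and 3. The difference was -0.13 ± 0.08 (limma adjusted p = 0.929), while the means of experiments 1 and 3 were 0.615 apart, which is 1.53-fold. Its relative Fitm1, known from muscle, averaged 6.73 in controls and 6.74 in irradiated cultures, a difference of 0.01 ± 0.07.

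Levels of the droplet genes were next compared between the 3 experiments, which are independent cultures and each hold both groups. By limma's F-test 0 of the 8 probe sets passed adjusted p 0.05, against 1.53% of all, and 2 had an unadjusted p under 0.05, Cidec and Fitm2, against 15.2% of all. Fitm2 was nearest (adjusted p = 0.0743) and passed when only probe sets at or above the median level were tested (adjusted p = 0.028), as did 4.99% of those probe sets. With an intensity trend and a robust prior both Fitm2 (adjusted p = 0.00167) and Cidec (adjusted p = 0.0196) passed, as did 5.29% of all probe sets. The means of both dishes of an experiment were not ordered alike in all genes. Those of Cidec and Adig were lowest in experiment 1, by 0.365 and 0.255 below experiment 3. Those of Plin4 and Fitm2 were highest there, by 0.315 and 0.615 above experiment 3. For Adig and Plin4 no difference between experiments was shown (limma F-test adjusted p = 0.687 and 0.371). In controls alone Adig was lowest in experiment 2, at 8.94. Plin2 and Plin3 spanned 0.11 and 0.115 over the experiments.

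**Figure D4:**
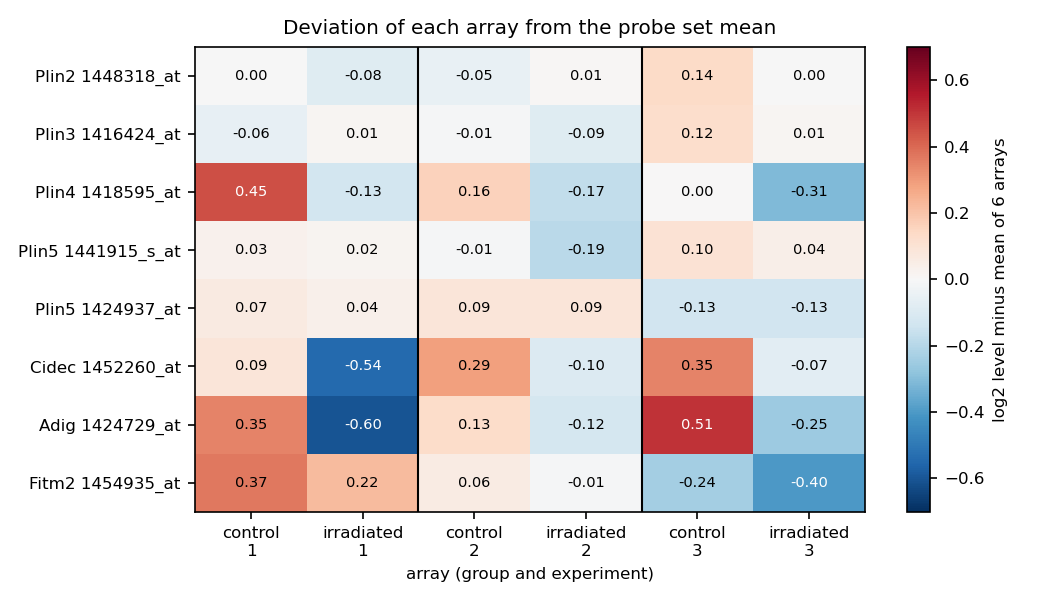
Log2 level on each array minus the mean of the 6 arrays, for each probe set (rows), with the arrays in columns by experiment and group. Red is above and blue below the mean; Fitm2 goes from 0.37 in control 1 to -0.40 in irradiated culture 3, and Adig from 0.51 in control 3 to -0.60 in irradiated culture 1.

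Within an experiment the difference of 1 gene can be set against that of another, which describes the gap between them. Of 21 pairs of genes, 14 had a gap of 1 direction in all 3 experiments. A gap with no preferred direction does so with a probability of 0.25. The pairs reuse the same 7 genes, so their count is not one of independent events. Most of the 14 set Plin4, Cidec or Adig against Plin2, Plin3, Plin5 or Fitm2. The count therefore mainly restates the larger differences of those 3 genes and adds no evidence to them. Cidec was lower relative to Plin2 by 0.55, 0.44 and 0.28 (mean 0.42 ± 0.14, SD, n = 3), and Plin4 relative to Plin2 by 0.50, 0.39 and 0.17. Plin4 was also lower relative to Plin5, its neighbour on chromosome 17, with gaps of -0.57, -0.15 and -0.25. Plin5 was read here by its brighter probe set, close to the median level, where background limits what a probe set can show. Cidec and Plin4 lay within 0.11 of each other in every experiment. Adig was below Cidec in experiments 1 and 3 and above it by 0.13 in experiment 2. With 3 pairs the smallest two-sided p of an exact sign-flip test is 0.25, and no other test of these gaps was run. Over the 6 arrays, Cidec and Adig had the highest correlation of any 2 of the genes (r = 0.91), followed by Plin3 and Plin5 (r = 0.78), and Plin3 and Fitm2 had the lowest (r = -0.51). These points share arrays, pairs and experiments.

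The genes with the most similar level profile over the 6 arrays were sought among 4789 probe sets at or above the median level with a range of at least 0.5. For Plin4 these were Prxl2a (r = 0.991, difference -0.47 ± 0.08) and Ffar2, a receptor for short-chain fatty acids (r = 0.991, difference -0.48 ± 0.11). For Cidec they were 2310001K24Rik (r = 0.978) and Mmd (r = 0.973), and for Adig they were Vps54 (r = 0.986) and again Mmd (r = 0.978). Mmd differed by -0.52, -0.19 and -0.42 in the 3 pairs. Fitm2 was closest to Arih2 (r = 0.999) and Ralgapa2 (r = 0.997), Plin2 to Cyp51, an enzyme of cholesterol synthesis (r = 0.997), and Spindoc (r = 0.989). Plin3 was closest to Zswim8 (r = 0.994) and Dleu2 (r = 0.987), and Plin5 to Parp6 (r = 0.991) and Prkd2 (r = 0.965). Plin2, Plin3 and Plin5 themselves ranged over only 0.22, 0.21 and 0.29, less than the 0.5 asked of the candidates. With 6 arrays and 4789 candidates, values this high are a description of likeness only.

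Other proteins of the droplet surface showed smaller differences than Plin4, Cidec and Adig. Of 27 measured genes 19 were negative (47.6% of all probe sets) and 8 positive (51.1% of all). Their median was -0.06, where all probe sets had a median of 0.0033. By limma 0 passed the test, and 1 was lower at an unadjusted p under 0.05 (2.38% of all). The lowest p belonged to Cidea, given above, and to Hilpda, which restrains the lipase ATGL under low oxygen, at -0.18 ± 0.11 with pair differences of -0.08, -0.01 and -0.44. Seipin (Bscl2), which sits where droplets leave the endoplasmic reticulum, was at -0.05 ± 0.08. G0s2, another restraint on ATGL, had pair differences of -0.89, -0.45 and 0.62.

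Lipolysis genes, whose enzymes the perilipins hold back, mostly had negative differences. Of 8 measured, 7 were negative (47.6% of all probe sets) with a median of -0.23 (-0.118 with each gene's probe sets averaged), and 4 were lower at an unadjusted limma p under 0.05 (2.38% of all). The glycerol channel Aqp7 was at -0.50 ± 0.11 and hormone-sensitive lipase Lipe at -0.35 ± 0.08, both lower in all 3 pairs. When a gene's probe sets were averaged, the list's median was -0.12. In triglyceride assembly 10 of 15 were negative (47.6% of all probe sets). The median was -0.14, which was -0.09 without experiment 1, -0.07 without experiment 3 and -0.08 with the level filter. Agpat2, the acyltransferase whose loss causes lipodystrophy, was at -0.44 ± 0.11 and Gpat3 at -0.26 ± 0.08. In that list 4 genes, against 2.38% of all probe sets, were lower and 1, the acyl-CoA synthetase Acsl5 (0.20 ± 0.08), higher at an unadjusted p under 0.05. Higher at that p were 1166 of all 45037 probe sets.

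Among regulators of the fat-cell program 15 of 17 were negative (47.6% of all probe sets) with a median of -0.12, and 3 were lower at an unadjusted limma p under 0.05 (2.38% of all). Mlxipl, the glucose-responsive activator ChREBP that binds E-box pairs, was at -0.55 ± 0.08, with irradiated arrays all below the controls. Ppargc1b, a coactivator of nuclear receptors, was at -0.26 ± 0.10 and Pparg at -0.13 ± 0.09. Of 9 mature fat-cell markers 8 were negative (47.6% of all probe sets). Their median was -0.14, which was -0.245 without experiment 3 and -0.09 without experiment 2. Resistin (Retn) was at -0.32 ± 0.08 and the fatty acid transporter Cd36 at -0.21 ± 0.09. The mean log2 level of these markers was 8.86 to 9.13 in controls and 8.72 to 8.91 in irradiated cultures, and their summed linear level 52470 to 58910 and 50760 to 53320. In all 5 lists 0 genes passed by limma. The lists were drawn up with earlier results of these data known and are no independent evidence of a direction.

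**Figure D5:**
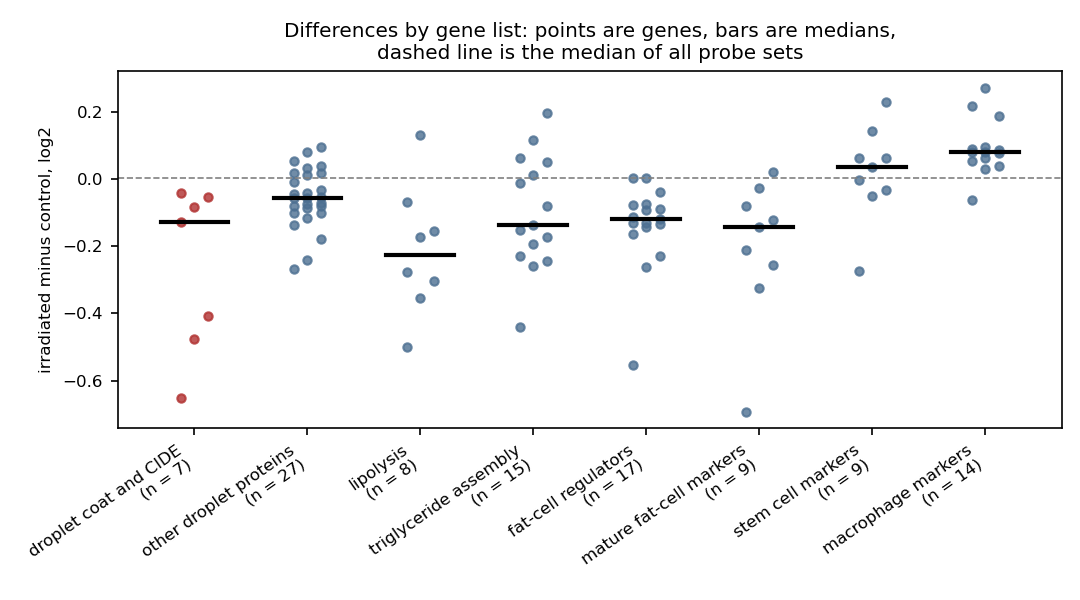
Irradiated minus control log2 difference of each gene (points) in the droplet coat and CIDE genes, 5 lists of related genes and 2 lists of markers, with the median of each list as a bar. The dashed line is the median of all probe sets, 0.0033; medians run from -0.23 for lipolysis to 0.08 for macrophage markers.

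Macrophage markers had differences of the opposite sign. Of 14 macrophage and leukocyte markers 13 were positive, where 51.1% of all probe sets were. Their median was 0.08, which was 0.047 without experiment 3. At an unadjusted limma p under 0.05, 1 (Cd14, 0.27 ± 0.09) was higher, as were 1166 of all 45037 probe sets. Their mean log2 level was 10.77 to 10.99 in controls and 10.95 to 11.04 in irradiated cultures, and their summed linear level 48930 to 55630 and 53430 to 56460, so the groups overlapped. No marker is at 0 on this scale, which has a background. Of 9 stem cell markers 4 were negative (47.6% of all probe sets), with a median of 0.04 that was -0.035 without experiment 1. Hepatocyte and steroid-cell markers had a median of 0.01, which was -0.035 without experiment 2 and -0.007 with median centring, with 2 of 7 at or above the median level. Muscle markers, from tissues where PLIN5 is high, had a median of -0.01, whose sign changed between settings, with 3 of 9 at or above the median level. The part of shifting cell mixture or RNA content in the values of Plin4, Cidec and Adig was not tested.

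By Actb, the share of RNA from the 3′ ends, a sign of RNA integrity, was alike within experiments 1 and 2. Signal at the 3′ end of Actb exceeded that at its 5′ end by 0.75 and 0.76 in control and irradiated culture 1, 0.62 and 0.61 in experiment 2, and 0.72 and 0.62 in experiment 3. For Gapdh the same measure was 0.19 and 0.23 in control and irradiated culture 1, -0.05 and -0.03 in experiment 2, and -0.03 and -0.01 in experiment 3. By Gapdh the dishes were thus alike within every experiment, and experiment 1 was higher than the others. Without experiment 3 the differences were -0.51 for Cidec, -0.46 for Plin4 and -0.60 for Adig.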

How the data were processed

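RNA of 6 cultures was measured on Affymetrix arrays from 200 ng of total RNA each. The deposited values, as the authors made them, are log2 levels, 1 for each probe set on each array; the submitters' processing notes name RMA, affy and limma without versions. RMA subtracts background, equalizes the arrays by quantiles and summarizes probes; the log base was taken to be 2 because RMA gives it. Scanner files were not used here.

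After 64 control probe sets were left out, 45037 were fitted with limma 3.58.1 in R 4.3.3 (lmFit, eBayes), with experiment as a fixed block and no filter. Two-sided p-values were adjusted over all probe sets (Benjamini-Hochberg, threshold 0.05). The same fit gave the F-test between experiments. The pairing comes from the series design. Dishes of an experiment deviated together from their group means, with r over probe sets of 0.63, 0.14 and 0.50, though irradiated culture 2 was as close to control 3 (r = 0.15). The number of arrays, 3 a group, limits the precision, and the median SE was 0.088. The fit was tested on simulated data with planted changes. It recovered 13.9% of changes of 1.5-fold, 86.6% of 2-fold and 98.9% of 4-fold. A change of 1.5-fold was thus mostly missed, so a probe set that did not pass can still differ by that much. Promoter sequences and gene positions are RefSeq's on GRCm38.p6.

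For lists, the singly named probe set with the highest mean stood for a gene. Named genes were all members, the 2 most correlated genes of each, and the 2 with the smallest p in each of 5 lists. Cideb, Fitm1, Bscl2, G0s2, Pparg, Acsl5, Cd14, Lep, Fabp4, Pck1 and Thy1 were added after their values were seen. Members and lists were chosen with earlier results of these data known.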

Additional observations from a re-analysis of the deposited data

How the results depend on the processing

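No droplet probe set passed between irradiated and control cultures in any alternative: no replicate block (0 called), a random block, quantile normalization, median centring, a filter at the median level, an intensity trend with a robust prior, array weights, and without replicate 1, 2 or 3. With trend and robust prior 1 of all probe sets passed, none of them a droplet gene. Over these alternatives and the mean of probe sets, limma adjusted p ranged from 0.189 to 0.998 for Cidec, from 0.356 to 0.998 for Plin4 and from 0.419 to 0.998 for Adig. Differences ranged from -0.53 to -0.40 for Cidec, -0.46 to -0.32 for Plin4 and -0.86 to -0.51 for Adig. No member's difference changed sign, though those of Plin2 and Plin3 came as near to 0 as -0.01 and -0.005. Between experiments the number of droplet probe sets called was 1 with the level filter (fewer probe sets tested) and 2 with trend and robust prior, where 2381 of all probe sets passed against 689; the cause of the latter was not tested.

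Among the lists, the mature fat-cell marker median was -0.21 with the level filter, -0.09 without replicate 2 and -0.245 without replicate 3. That of other droplet proteins was -0.035 without replicate 1 or replicate 3. Without a block the pairing is lost, and that changed no call. Plin5 lies near the median level, where background limits what a probe set can show.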
